A study of Mus musculus with 5 samples.

Results

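The growth hormone receptor and the insulin-like growth factor (IGF) system were followed through 10 genes chosen by name. These were the receptors Ghr, Igf1r and Igf2r, the ligands Igf1 and Igf2, and the binding proteins Igfbp3, Igfbp4, Igfbp5, Igfbp6 and Igfbp7. They were 10 of the 29818 genes in the count files, and UMIs (unique molecular identifiers, each standing for 1 captured RNA molecule) of all 10 were found. Their levels are given below in every cell class that could be recognised from marker genes, first over all pups and then by genotype.

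Cells were taken from the cartilage at the ends of the femur and tibia of 5 pups labelled as C57BL/6J and as postnatal day 5. The text on the whole series and the paper on these data give day 3, and the files do not settle this difference. The paper also describes the pups as littermates. The 2 pups labelled wild type (WT) are pups 1 and 2, and the 3 pups labelled mutant are pups 3, 4 and 5. The mutant pups carried 1 conditional knock-in allele of the calcium channel gene Trpv4 (p.R594H) together with a Col2a1-Cre transgene. The Cre recombinase was driven by the promoter of Col2a1, the cartilage collagen gene, so recombination was directed to chondrocytes, and this Cre line was made on a mixed background of B6 and SJL mice. Each pup gave 1 library of dissociated cells, and the comparisons asked in which cells each gene was made and whether its level differed between the genotypes.

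Growth hormone from the pituitary acts through its receptor Ghr, which signals by the kinase Jak2 and the transcription factor Stat5, and a classic target is the gene for Igf1. Igf1 and Igf2 both bind the receptor tyrosine kinase Igf1r, whereas Igf2r takes up Igf2 and carries it to lysosomes without such a signal. Binding proteins hold most IGF outside cells, extend its life and limit or deliver it to the receptor, and proteases such as Pappa cut them and release it. In the growth plate, chondrocytes pass from a resting to a proliferating and then a hypertrophic state, and both growth hormone and IGF signalling promote bone lengthening there.

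After filtering, 82516 of 84382 cells were kept, 31682 from the WT and 50834 from the mutant pups, and they fell into 41 clusters of which 36 could be named from markers. The named clusters formed 19 classes. Of these, 16 had at least 30 cells in every pup and are described here, while 9900 cells stayed unnamed. The WT libraries were deeper, with medians of 9261 and 8521 UMIs per cell, than the mutant libraries, with 6657, 6000 and 7016. The pups also differed in sex-linked genes: a UMI of Xist was found in 89.8% and 88.4% of the cells of mutant pups 3 and 4 and in at most 0.174% in the other pups. Cell type markers that should be absent were not at 0, since erythroid cells held Col2a1 at 38382 ± 12827 CPM (the UMIs of the gene scaled to a total of 1e+06 UMIs for that class in a pup; mean ± SD, n = 5 pups), a level that free RNA or wells with more than 1 cell can leave. Between 3 and 7 cell barcodes were shared by each pair of libraries. Trpv4 itself was at 354 and 222 CPM in the proliferating chondrocytes of the WT pups and at 241, 347 and 328 CPM in those of the mutant pups, and the counts do not tell its alleles apart.

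The classes carried their markers to different degrees. Hypertrophic chondrocytes had 7 of their 9 markers at a higher level than any other class, osteoblast lineage cells 8 of 12, pericytes 9 of 10, and endothelial cells 10 of 10. Resting chondrocytes had 3 of 10 markers highest and all 10 above the median class, proliferating chondrocytes 1 and 11 of 11, perichondrial cells 4 and 15 of 15, and prehypertrophic chondrocytes 0 and 9 of 9. Of the articular chondrocyte markers 3 of 9 were highest and 7 of 9 above the median class. The border between resting and proliferating cells was weak: 4 of the 5 clusters named resting scored higher on the proliferating markers (1.10, 1.17, 1.30 and 1.10 against 0.87, 0.98, 1.16 and 0.86) and were named resting by the further rules on defining and leading genes. The proliferating class was a single cluster of 1247 cells. It was led by cell cycle genes such as Ccnb1, Cdk1 and Birc5, and none of its markers was among its leading genes. In a clustering with no upper limit on genes per cell, 5484 cells led by H2-DMa, Aldoc and Il17b also took the proliferating name. These genes were among those leading the prehypertrophic class of 5271 cells here, and that class then held 1396 cells. The articular cluster led by Spink5, with 4285 of the 11602 articular cells, scored higher on the resting markers (0.80 against 0.57), and the single hypertrophic cluster on the prehypertrophic ones (2.60 against 2.47). In all 9 named clusters scored higher as another class, among them the fibrocartilage-like cluster led by Thbs4 and Cilp (articular, 0.93 against 0.85), another of that class (tendon or ligament, 1.07 against 0.86) and 1 of the 2 granulocyte clusters (lymphoid, 3.00 against 2.63). One resting cluster was led by mitotic genes such as Top2a and Aspm and held Mki67, a marker of cycling cells, at 878 CPM against 484 CPM in the proliferating cluster (UMIs summed over the pups), another by Fos and Egr1, and 1 fibrocartilage-like cluster by the heat shock genes Hspa1a and Hspa1b. The 10 genes described here were left out of the genes used for clustering.

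In the mouse genome build GRCm38, Ghr lies on the minus strand of chromosome 15 from 3317760 to 3583492, Igf1r on the plus strand of chromosome 7 from 67952827 to 68233668 and Igf2r on the minus strand of chromosome 17 from 12682406 to 12769664. Igf1 spans 87858265 to 87937042 on chromosome 10 (plus) and Igf2 142650766 to 142666816 on chromosome 7 (minus). The binding protein genes are Igfbp3 on chromosome 11 from 7206086 to 7213923 (minus), Igfbp4 on chromosome 11 from 99041244 to 99054392 (plus), Igfbp5 on chromosome 1 from 72857932 to 72874884 (minus), Igfbp6 on chromosome 15 from 102144362 to 102149511 (plus) and Igfbp7 on chromosome 5 from 77349240 to 77408041 (minus). Antisense genes overlap Igf1 (Igf1os), Igf2 (Igf2os), Igf2r (Airn) and Igfbp7 (Gm34648), and Polr2b meets the end of Igfbp7 on the other strand. The strand setting of the counting is not given in the sources used here, so reads of such partners cannot be told apart with certainty. Igf2 also shares nearly all of its span, on the same strand, with Gm49394, a readthrough gene model with its own row, where at most 0.219 CPM was counted on average in any class. UMIs shared by both gene models may have gone uncounted, so the level of Igf2 is uncertain.

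The 250 bases before the annotated start are shown for the 5 genes that were more than 10-fold higher in perichondrial cells than in resting chondrocytes, since these moved together (RefSeq starts, GRCm38.p6, written 5′ to 3′ on the strand of the gene). All 10 genes were matched to 14 starts. Of the starts shown, those of Igf1 and Igfbp5 lie inside the longer annotated spans of these genes, and that of Igfbp6 lies before its span. Capitals mark a match to 1 of the 4 motifs searched on both strands: TATAAA and TATATA, 2 of the forms of the TATA box, GGGCGG, the GC box, and TTCNNNGAA, the site form bound by Stat5. Of the 32851 mouse promoter windows of this length, 12.4% held TATAAA, 5.25% TATATA, 32.7% GGGCGG and 7.02% TTCNNNGAA. TATATA stood 30 bases before the start of Igfbp3 and TATAAA 28 bases before that of Igfbp4, the usual place of a TATA box. In the Igfbp6 window TATAAA was on the other strand, printed as TTTATA, 148 bases before the start. None of the 4 motifs was found in the windows of Igf1 and Igfbp5. Other forms of the TATA box were not searched, so a TATA box is not excluded there.
Igf1, chr10:87860861-87861110, plus strand: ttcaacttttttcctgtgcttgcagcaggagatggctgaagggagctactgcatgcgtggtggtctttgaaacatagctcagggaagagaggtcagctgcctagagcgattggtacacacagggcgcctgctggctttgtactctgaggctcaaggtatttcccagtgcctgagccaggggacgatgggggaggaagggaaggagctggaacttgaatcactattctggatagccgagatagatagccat
Igfbp3, chr11:7213924-7214173, minus strand: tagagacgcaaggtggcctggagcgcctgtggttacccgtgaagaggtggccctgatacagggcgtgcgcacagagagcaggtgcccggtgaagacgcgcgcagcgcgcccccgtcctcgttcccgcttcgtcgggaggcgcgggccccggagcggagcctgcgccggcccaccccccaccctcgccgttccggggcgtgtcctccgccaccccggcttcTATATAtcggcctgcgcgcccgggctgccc
Igfbp4, chr11:99040994-99041243, plus strand: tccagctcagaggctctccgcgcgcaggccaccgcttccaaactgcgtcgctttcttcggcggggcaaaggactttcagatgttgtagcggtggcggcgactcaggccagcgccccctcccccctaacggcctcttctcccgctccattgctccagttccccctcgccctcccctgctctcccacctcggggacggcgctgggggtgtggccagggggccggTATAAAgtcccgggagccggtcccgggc
Igfbp5, chr1:72874866-72875115, minus strand: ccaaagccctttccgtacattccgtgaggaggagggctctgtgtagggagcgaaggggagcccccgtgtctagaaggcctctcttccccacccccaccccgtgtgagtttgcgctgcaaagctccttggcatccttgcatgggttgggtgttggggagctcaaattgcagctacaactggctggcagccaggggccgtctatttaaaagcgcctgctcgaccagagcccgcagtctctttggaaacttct
Igfbp6, chr15:102143936-102144185, plus strand: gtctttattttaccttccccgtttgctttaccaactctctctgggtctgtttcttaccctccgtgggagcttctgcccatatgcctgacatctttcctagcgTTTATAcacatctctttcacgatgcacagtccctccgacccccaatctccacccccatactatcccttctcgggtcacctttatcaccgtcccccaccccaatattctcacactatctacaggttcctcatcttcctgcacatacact

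Among the 16 classes, Ghr was highest in articular chondrocytes and perichondrial cells and lowest in proliferating chondrocytes, a 4.70-fold range. Unnamed clusters rich in Col2a1 (at least 49218 CPM) had 108, 99.3 and 98.9 CPM of Ghr (UMIs summed over the pups). Single articular and perichondrial clusters reached 101 and 100 CPM of Ghr on that measure, so the unnamed chondrocyte-like cells were not below the top classes. In articular chondrocytes it was at 75.8 and 95.5 CPM in the WT pups and at 90.5, 71.1 and 90.9 CPM in the mutant pups, and in proliferating chondrocytes at 17.6 and 16.3 and at 22.8, 12.4 and 21.1 CPM. Every pup had more Ghr in its articular than in its proliferating chondrocytes, and the WT and mutant values overlapped in both. The descending order was articular chondrocytes (84.8 ± 10.7 CPM, mean ± SD, n = 5 pups here and below), perichondrial cells (81.1 ± 9.80), resting chondrocytes (68.2 ± 6.56), fibrocartilage-like cells (50.02 ± 10.0), synovial or articular progenitors (48.7 ± 7.31), endothelial cells (47.3 ± 8.21), tendon or ligament cells (46.6 ± 5.01) and erythroid cells (45.2 ± 7.07). Lower levels were found in Tgfbi-expressing chondrocytes (42.4 ± 7.25), hypertrophic chondrocytes (40.5 ± 5.10), granulocytes (38.8 ± 14.7), pericytes (34.9 ± 7.34), osteoblast lineage cells (32.3 ± 6.19), macrophages (24.2 ± 3.19), prehypertrophic chondrocytes (23.2 ± 4.25) and proliferating chondrocytes (18.0 ± 4.10). Each of the top 3 classes was above the next class in all 5 pups, as were osteoblast lineage cells over macrophages and prehypertrophic over proliferating chondrocytes. The place of the resting cells depended on how the classes were drawn: at a coarser clustering (resolution 0.8) the log2 differences from resting chondrocytes were -0.08 for articular chondrocytes (edgeR adjusted p = 0.54) and -0.42 for perichondrial cells (edgeR adjusted p = 2.0e-04). The other 10 of the 15 neighbouring classes in this order did not keep their order in every pup. The classes from fibrocartilage-like cells to granulocytes thus lay close to the 45.2 CPM of erythroid cells, a class in which the level may be background.

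Within the growth plate, Ghr fell from resting to proliferating chondrocytes, a cluster led by cell cycle genes, and was higher again in hypertrophic ones. Resting chondrocytes had 63.6, 71.1, 71.4, 59.4 and 75.6 CPM in pups 1 to 5, and hypertrophic chondrocytes 43.3, 39.8, 40.6, 32.5 and 46.1 CPM, so the 3 states did not overlap. The fall to the proliferating state was 4.19-fold (log2 difference -2.07 ± 0.11 SE, edgeR quasi-likelihood test with pup as a block, adjusted p = 2.7e-27), and the hypertrophic level was higher than the proliferating one by 1.27 ± 0.12 on the log2 scale (edgeR adjusted p = 6.6e-15). The proliferating and hypertrophic means were both under the erythroid mean of 45.2 CPM. Cells of these 2 states were also deeper, with medians of 23575 and 27851 UMIs against 8705 in resting and 7218 in erythroid cells, and the part of depth and free RNA in the differences between states was not tested. Among the 5 resting clusters the mean ranged from 48.1 CPM in the mitotic cluster and 50.6 CPM in the cluster led by Sfrp5 to 84.5 CPM. Among the 4 perichondrial clusters it ranged from 58.8 to 97.4 CPM.

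Igf1r, the signalling receptor of both ligands, was highest in prehypertrophic chondrocytes and lowest in macrophages, and its range was 4.21-fold. In prehypertrophic chondrocytes it was at 247 and 289 CPM in the WT pups and at 270.0, 237 and 316 CPM in the mutant pups. These values were above those of proliferating chondrocytes, the next class, in every pup. Proliferating (231 ± 26.5 CPM) and articular chondrocytes (229 ± 20.8), pericytes (199 ± 30.7), synovial or articular progenitors (195 ± 32.5), Tgfbi-expressing chondrocytes (179.9 ± 25.6), perichondrial cells (166 ± 28.7) and resting chondrocytes (159 ± 27.3) followed. Granulocytes (146 ± 26.1), hypertrophic chondrocytes (144 ± 19.7), erythroid cells (139 ± 34.7), fibrocartilage-like cells (137 ± 17.0), osteoblast lineage cells (136 ± 19), tendon or ligament cells (114 ± 16.9), endothelial cells (106 ± 9.42) and macrophages (64.6 ± 5.06) made up the rest. Only the first and the last step of this order, from prehypertrophic to proliferating chondrocytes and from endothelial cells to macrophages, held in all 5 pups. At the coarser clustering the osteoblast lineage level was 64.8 CPM.

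Igf2r, which clears Igf2, had its highest levels in resting chondrocytes (460.4 ± 44.4 CPM) and Tgfbi-expressing chondrocytes (459.8 ± 36.1), and these 2 classes could not be ordered. Its level fell through the growth plate to 270.5 ± 30.2 CPM in proliferating, 246 ± 30.5 in prehypertrophic and 97.1 ± 22.0 in hypertrophic chondrocytes, the lowest of the 16 classes. Hypertrophic chondrocytes had 109, 67.1, 81.1, 109 and 119 CPM in pups 1 to 5, all below the resting values of 414, 439, 436, 492 and 521 CPM. Perichondrial cells (393 ± 39.9), articular chondrocytes (380.0 ± 35.1), pericytes (376 ± 65.1), osteoblast lineage cells (336 ± 38.4), fibrocartilage-like cells (332 ± 29.5) and synovial or articular progenitors (317 ± 30.2) lay between the resting and the proliferating level. Erythroid cells (249.9 ± 111), tendon or ligament cells (216 ± 42.3), endothelial cells (215 ± 21.3), granulocytes (154 ± 51.1) and macrophages (105 ± 34.9) were lower. Neighbours in this order were apart in all 5 pups in 2 of 15 steps, from Tgfbi-expressing chondrocytes to perichondrial cells and from endothelial cells to granulocytes. The prehypertrophic level was 161 CPM with no upper limit on genes, and the osteoblast lineage level 176 CPM at the coarser clustering.

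**Figure D1:**
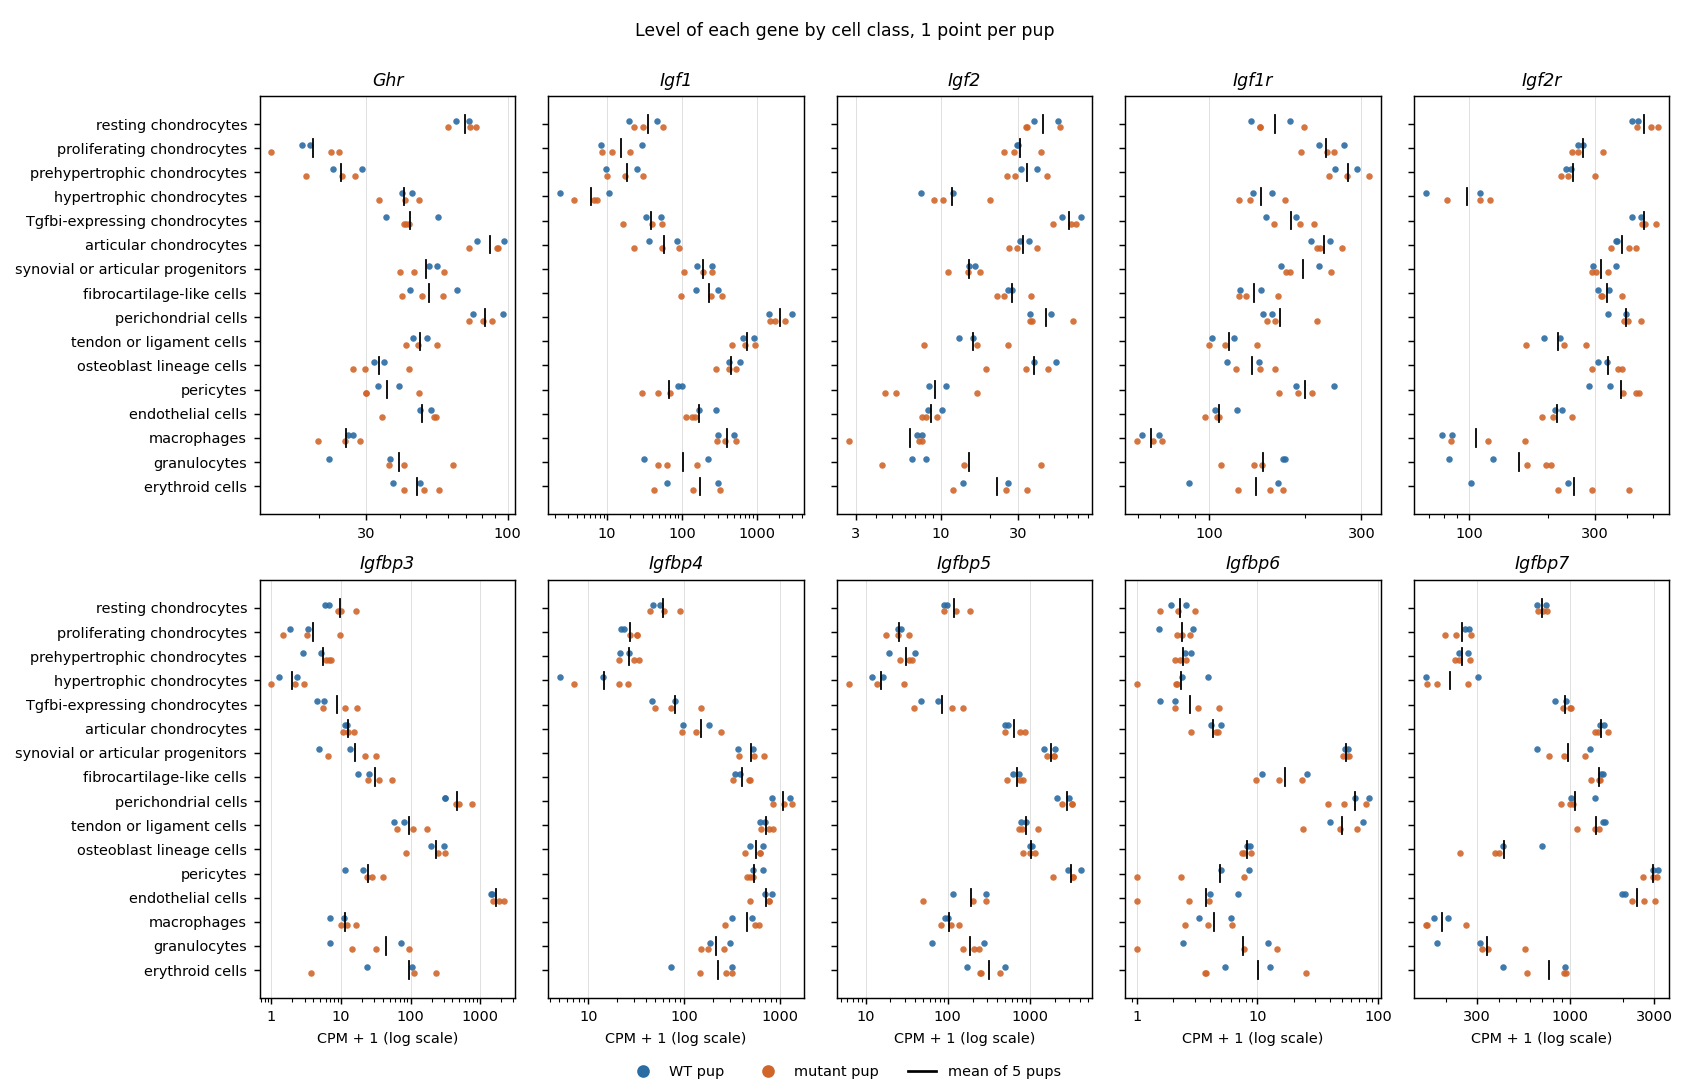
Level of each gene in 16 cell classes, 1 panel per gene, with 1 point per pup (blue, 2 WT pups; orange, 3 mutant pups), a black line at the mean of the 5 pups and CPM + 1 on a log axis. Igf1 peaked in perichondrial cells (2017 CPM) and Igfbp3 in endothelial cells (1688 CPM), while Ghr, Igf1r and Igf2r spread over less than 5-fold and the WT and mutant points overlapped in most rows.

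Igf1, the growth factor downstream of growth hormone, was made mainly outside the cartilage proper. Perichondrial cells were named from markers after the fibroblast-like layer around the cartilage, and their place in the tissue was not seen. In these cells Igf1 was at 1475 and 2975.5 CPM in the WT pups and at 2373, 1749 and 1510.5 CPM in the mutant pups. In resting chondrocytes it was at 18.9 and 45.3 CPM and at 55.4, 29.1 and 22.0 CPM, far below the perichondrial level in every pup. The highest and lowest classes differed 394-fold. Tendon or ligament cells (734 ± 199 CPM), osteoblast lineage cells (453 ± 120) and macrophages (399.7 ± 108) followed the perichondrial cells (2017 ± 646). Fibrocartilage-like cells (228 ± 104), synovial or articular progenitors (191 ± 61.7), erythroid cells (175 ± 133), endothelial cells (169 ± 66.9), granulocytes (104 ± 82.5) and pericytes (66.7 ± 29.5) came next. Chondrocytes were at the bottom of the order, with 57.0 ± 29.7 CPM in articular, 38.1 ± 15.4 in Tgfbi-expressing, 34.1 ± 15.7 in resting, 17.4 ± 8.96 in prehypertrophic, 14.6 ± 9.24 in proliferating and 5.12 ± 3.23 in hypertrophic chondrocytes. The levels in osteoblast lineage and fibrocartilage-like cells depended on how the classes were drawn, with 27.5 and 73.4 CPM at a coarser clustering. With no upper limit on genes per cell the levels were 64.3 CPM in fibrocartilage-like cells, 8.74 in prehypertrophic and 21.9 in proliferating chondrocytes.

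The erythroid level is a guide to the background, since these cells are not known to make Igf1. Erythroid cells had 62.9 and 304 CPM of Igf1 in the WT pups and 326, 142 and 41.1 CPM in the mutant pups, and all cells together had 222 and 518 and then 508, 320.3 and 150.4 CPM. Pups 2 and 3 were thus high and pups 1 and 5 low in the erythroid cells, in the resting chondrocytes and over all cells, and the part of free RNA in the chondrocyte levels was not tested. The perichondrial share of the cells was 9.93% and 15.8% in the WT pups and 16.1%, 12.5% and 7.50% in the mutant pups, which has the same high and low pups. The mean of every chondrocyte class was below the erythroid mean. After each cell was thinned to 3000 UMIs, a UMI of Igf1 was found in 76.8% of perichondrial cells (82.8% unthinned), against 16.9% of erythroid cells and 5.39% of resting chondrocytes (means of 5 pups, with median depths of 6133, 7218 and 8705 UMIs). The resting share was below the erythroid share and is not read as expression.

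Within classes, Igf1 was concentrated in particular clusters. Among the perichondrial clusters its mean was 3412 CPM in the cluster led by Clec3b and Mfap5, 2303 CPM in the cluster led by Mt2 and Has1, 1035 CPM in the cluster led by Igfbp3 and Col8a1 and 685 CPM in the cluster led by Podn and Npnt. Igf1 itself was among the 10 leading genes of the Clec3b and the Mt2 cluster. Macrophages led by Mrc1, Lyve1 and C1qa, the genes of resident macrophages, had 514 and 689.8 CPM in the WT pups and 464, 682 and 467 CPM in the mutant pups. Macrophages led by Cd74 and H2-Aa, which serve antigen presentation, had 132 and 172 and then 171, 155 and 81.8 CPM. The Mrc1 cluster was therefore above the Cd74 cluster in all 5 pups. Among the fibrocartilage-like clusters the mean was 736 CPM in the cluster led by Thbs4 and Cilp and between 44.1 and 249 CPM in the other 3.

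Igf2, the fetal growth factor of an imprinted gene, had its higher levels in chondrocytes, perichondrial cells and osteoblast lineage cells and its lowest in vessel cells and macrophages. Tgfbi-expressing chondrocytes were highest, with 54.6 and 71.6 CPM in the WT pups and 62.3, 47.9 and 66.8 CPM in the mutant pups. They exceeded the next class, perichondrial cells (43.1 ± 12.9 CPM), in all 5 pups. Resting chondrocytes (41.3 ± 10.2), osteoblast lineage cells (36.4 ± 12.5), prehypertrophic (33.0 ± 8.07), articular (31.1 ± 5.05) and proliferating chondrocytes (29.6 ± 6.25), fibrocartilage-like cells (26.3 ± 5.32) and erythroid cells (21.2 ± 9.21) followed. Tendon or ligament cells (14.9 ± 6.64), synovial or articular progenitors (13.9 ± 2.43), granulocytes (13.9 ± 15.2), hypertrophic chondrocytes (10.8 ± 4.92), pericytes (8.18 ± 4.93), endothelial cells (7.75 ± 1.04) and macrophages (5.52 ± 2.14) were at or below the erythroid level. The step from prehypertrophic or proliferating to hypertrophic chondrocytes was the clear one within the growth plate, since every pup had less Igf2 in its hypertrophic cells. At the coarser clustering the osteoblast lineage level was 2.04 CPM. With no upper limit on genes the prehypertrophic level was 19.7 CPM, and without called doublets the macrophage level was 3.28 CPM.

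Igfbp3, the main carrier of IGF in blood, had 2 separate sites of high level. Endothelial cells had 1438 and 1469.8 CPM in the WT pups and 1528, 1834 and 2169 CPM in the mutant pups, and perichondrial cells had 308.5 and 315 CPM and then 501, 443 and 753 CPM. Every pup had more Igfbp3 in its endothelial than in its perichondrial cells, and in both classes all mutant pups were above both WT pups. Osteoblast lineage cells (227 ± 91.9 CPM), tendon or ligament cells (95.1 ± 45.8), erythroid cells (94.3 ± 89.4), granulocytes (43.2 ± 38.3), fibrocartilage-like cells (30.3 ± 13.9), pericytes (23.8 ± 10.4) and synovial or articular progenitors (14.9 ± 11.4) were intermediate. Articular (11.4 ± 1.73), resting (8.69 ± 4.19), Tgfbi-expressing (7.82 ± 5.40), prehypertrophic (4.59 ± 1.70), proliferating (2.93 ± 3.34) and hypertrophic chondrocytes (0.953 ± 0.802, 14 UMIs in all) were below the erythroid level, as were macrophages (10.3 ± 3.46). Within the perichondrial class, Igfbp3 was the leading gene of 1 cluster, with a mean of 1031 CPM there (721 to 1602 over the pups) against 229, 114 and 94.2 CPM in the other 3. At the coarser clustering, where the osteoblast lineage name went to other cells, the osteoblast level was 14.6 CPM, and without called doublets the prehypertrophic level was 1.85 CPM and the granulocyte level 28.2 CPM. With no upper limit on genes the erythroid level was 35.3 CPM, the osteoblast level 137 CPM, the proliferating level 4.77 CPM and the hypertrophic level 1.87 CPM.

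Igfbp4, an IGF binding protein that is cut by Pappa, was high in connective tissue and low in the growth plate. Perichondrial cells had 817 and 1249 CPM in the WT pups and 1327, 1089 and 839.5 CPM in the mutant pups. They were above tendon or ligament cells (706 ± 92.7 CPM) in every pup. Endothelial cells (703 ± 131), osteoblast lineage cells (562 ± 100), pericytes (525 ± 83.3), synovial or articular progenitors (491 ± 128), macrophages (445 ± 147) and fibrocartilage-like cells (399 ± 74.7) came next, then erythroid cells (222 ± 108) and granulocytes (211 ± 61.5). Articular (148 ± 62.8), Tgfbi-expressing (78.6 ± 42.4), resting (58.6 ± 18.4), proliferating (26.4 ± 4.82), prehypertrophic (25.3 ± 5.53) and hypertrophic chondrocytes (13.6 ± 8.88) were all below the erythroid mean. At the coarser clustering the osteoblast lineage level was 148 CPM and the Tgfbi-expressing level 134 CPM, and with no upper limit on genes the fibrocartilage-like level was 255 CPM and the prehypertrophic level 12.9 CPM. Of the 15 steps in this order 6 held in all 5 pups, the most of the 10 genes. In macrophages Igfbp4 followed the same split as Igf1, with 674 CPM in the Mrc1 cluster and 77.9 CPM in the Cd74 cluster on average, and the ranges of 479.8 to 773 and 12.6 to 164 CPM did not overlap.

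Igfbp5, a binding protein of bone and mural cells, was highest in pericytes, with 2927 and 4119.7 CPM in the WT pups and 3289.7, 1913 and 3349.8 CPM in the mutant pups. Perichondrial cells (2802 ± 488 CPM) were below pericytes in 4 of 5 pups, and synovial or articular progenitors (1799.6 ± 228) below perichondrial cells in all 5. Osteoblast lineage cells (1011 ± 120), tendon or ligament cells (887 ± 210), fibrocartilage-like cells (689.8 ± 120) and articular chondrocytes (633 ± 172) followed. At or below the erythroid level (319 ± 135) were endothelial cells (188 ± 105), granulocytes (188 ± 83.7), resting chondrocytes (117 ± 40.0), macrophages (103 ± 20.1) and Tgfbi-expressing chondrocytes (84.4 ± 47.0). Prehypertrophic (30.3 ± 8.46), proliferating (24.7 ± 5.69) and hypertrophic chondrocytes (14.5 ± 8.68) were lowest. At the coarser clustering the osteoblast lineage level was 210.4 CPM, under that of erythroid cells here, and the Tgfbi-expressing level 134 CPM, and with no upper limit on genes the prehypertrophic level was 15.7 CPM and the hypertrophic level 24.8 CPM. Articular chondrocytes were the exception among chondrocytes, and there the level differed by cluster: 1189.9 CPM in the cluster led by Cilp and Cyfip2, 635 CPM in the cluster led by Prg4 and Vit and 177 CPM in the cluster led by Spink5, Prg4 and Wif1. The lowest pup of the Cilp cluster had 851 CPM and the highest pup of the Spink5 cluster 264 CPM.

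Igfbp6, a binding protein that prefers Igf2, was found in 3 connective tissue classes that could not be ordered, perichondrial cells (63.0 ± 19.2 CPM), synovial or articular progenitors (53.8 ± 2.67) and tendon or ligament cells (49.8 ± 20.5). Tendon or ligament cells exceeded fibrocartilage-like cells (15.96 ± 7.29) in every pup, and no later step of the order held in all pups. The fibrocartilage-like level came mostly from the cluster led by Thbs4 and Cilp (a mean of 57.97 CPM, against 3.85 to 8.08 CPM in the other 3 clusters), and it was 5.27 CPM at the coarser clustering and 2.97 CPM with no upper limit on genes. The other 12 classes lay at or below the 9.13 ± 9.15 CPM of erythroid cells, down to 1.25 ± 0.576 CPM in resting chondrocytes. In perichondrial cells the mean was 114 CPM in the Clec3b cluster and 12.6 CPM in the Podn cluster.

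Igfbp7, a matrix protein of vessel walls that binds IGF weakly, was highest in pericytes (2948 ± 219 CPM) and endothelial cells (2389 ± 443). A UMI was found in 99.9% of pericytes after thinning to 3000 UMIs. Articular chondrocytes (1505 ± 102), fibrocartilage-like cells (1459 ± 84.7) and tendon or ligament cells (1415 ± 187) were next and were not apart. Perichondrial cells (1069 ± 191), synovial or articular progenitors (972 ± 279), Tgfbi-expressing chondrocytes (942 ± 80.0), erythroid cells (760.1 ± 249) and resting chondrocytes (699 ± 41.2) followed. Osteoblast lineage cells (425 ± 168), granulocytes (342 ± 138), prehypertrophic (246 ± 20.5), proliferating (245 ± 32.7) and hypertrophic chondrocytes (209.7 ± 68.0) and macrophages (188 ± 44.0) were lowest. The osteoblast lineage level was 159 CPM at the coarser clustering, and the macrophage level 119 CPM without called doublets. Within the joint surface and the growth plate, the level thus stepped down from articular to resting to the later chondrocyte states, and the resting cells were below the articular ones in every pup.

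**Figure D2:**
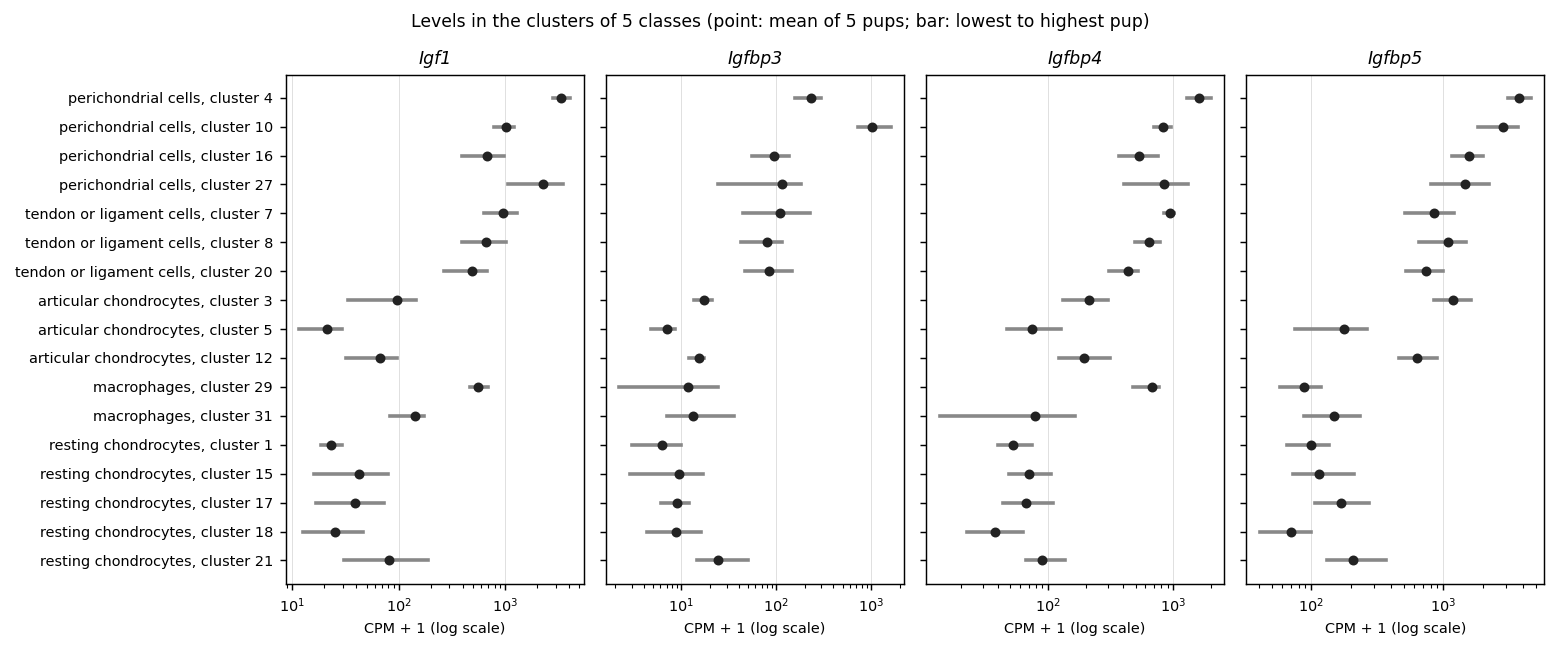
Mean CPM + 1 over the 5 pups (point) with the range from the lowest to the highest pup (bar), on a log axis, of Igf1, Igfbp3, Igfbp4 and Igfbp5 in the clusters of 5 classes. Igfbp3 reached 1031 CPM in 1 perichondrial cluster, Igf1 3412 CPM in another, and Igf1 and Igfbp4 differed between the 2 macrophage clusters without overlap.

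Across the 19 named classes, the levels of several of these genes ran together on the log2(CPM + 5) scale. Pearson's r was 0.905 between Igf1 and Igfbp4, 0.812 between Igfbp4 and Igfbp5, 0.745 between Igf1 and Igfbp5, 0.730 between Igf1 and Igfbp3, 0.726 between Igf1 and Igfbp6 and 0.796 between Igf2 and Igf2r. These are descriptions over classes that share libraries and may share free RNA, and no test was made. Among the 7111 genes with at least 50 CPM in some class, the most alike were Boc (0.827) and Glis3 (0.815) for Ghr, Ddx1 (0.890) and Dgcr2 (0.878) for Igf1r, and Hoxc10 (0.900) and Sspn (0.890) for Igf2r. For the ligands they were Fndc1 (0.887) and Lhfpl2 (0.867) for Igf1 and H19 (0.967) and Gli1 (0.908) for Igf2, where H19 is the noncoding neighbour of Igf2 at the imprinted locus. For the binding proteins they were Sncaip (0.900) and Prrg3 (0.884) for Igfbp3, Ifitm3 (0.941) and Ano6 (0.928) for Igfbp4, Pard3b (0.947) and Rbms3 (0.942) for Igfbp5, Ccn3 (0.902) and Clec3b (0.875) for Igfbp6, and Lamb2 (0.838) and Tm4sf1 (0.828) for Igfbp7.

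Along the growth plate most of these genes fell as a share of all UMIs. Proliferating cells were deeper, with a median of 23575 UMIs per cell against 8705 in resting cells. A lower share therefore need not mean fewer UMIs per cell, and the part of depth was not tested. From resting to proliferating chondrocytes 8 of 10 fell, 1 rose and Igfbp6 did not pass the test (edgeR quasi-likelihood test on UMIs summed per pup and class, pup as a block, adjusted p under 0.05 over 15433 genes). In the same test 30.5% of all genes were lower and 27.8% higher, and the median log2 difference was -1.31 over the 10 genes and -0.05 over all genes. Igf1r was the gene that rose, by 0.42 ± 0.10 (SE) on the log2 scale (edgeR adjusted p = 1.9e-04). Igfbp5 fell by 2.36 ± 0.27, Ghr by 2.07 ± 0.11, Igfbp3 by 1.68 ± 0.54, Igfbp7 by 1.64 ± 0.19, Igf1 by 1.38 ± 0.30, Igfbp4 by 1.24 ± 0.22, Igf2r by 0.89 ± 0.13 and Igf2 by 0.60 ± 0.14. With no upper limit on genes per cell the Igf2 difference was -0.30 and its call was lost (edgeR adjusted p = 0.061). Ghr, Igf1, Igf2r, Igfbp3, Igfbp4, Igfbp5 and Igfbp7 were higher in all 5 clusters named resting than in the proliferating cluster, Igf2 in 4 of them and Igf1r in 0, with Ghr at a mean of 48.1 CPM in the mitotic resting cluster and 18.0 CPM in the proliferating one. For Igf1, Igfbp3, Igfbp4, Igfbp5 and Igfbp7 both mean levels were under that of erythroid cells, and the part of free RNA in these differences was not tested. The p-values come from a single fit of all tested classes, in which the spread of a gene is pooled over every class. They are thus not a test of the pup differences between a single pair of classes alone. The classes themselves were built from other genes of the same cells.

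From proliferating to hypertrophic chondrocytes 1 gene rose and 5 fell, where 23.9% of all genes rose and 27.2% fell. Ghr was the gene that rose. Igf2 (log2 difference -1.49 ± 0.21), Igf2r (-1.41 ± 0.14), Igf1 (-1.32 ± 0.45), Igfbp4 (-0.85 ± 0.28) and Igf1r (-0.59 ± 0.10) fell. Igfbp3 (-1.30 ± 1.14), Igfbp5 (-0.58 ± 0.33), Igfbp7 (-0.16 ± 0.19) and Igfbp6 (0.08 ± 0.57) did not pass the test. The median was -0.72 over the 10 genes and -0.07 over all genes. The calls of Igf1 and Igfbp4 were lost without the block (adjusted p = 0.088 and 0.062), that of Igf1 without WT pup 2 (0.077) and that of Igfbp4 without mutant pup 5 (0.076). For Ghr, Igf1 and Igfbp4 both mean levels were under that of erythroid cells, and the part of free RNA in these differences was not tested. With no upper limit on genes Igfbp7 was called lower (-0.43, edgeR adjusted p = 0.038).

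At the joint surface, the differences of articular from resting chondrocytes over 1 on the log2 scale were all of binding proteins. Of the 10 genes 7 were higher and 2 lower in the articular cells, against 20.9% and 22.5% of all genes, and the medians were 0.57 and -0.02. Igfbp5 was higher by 2.41 ± 0.25 (edgeR adjusted p = 2.5e-12), Igfbp6 by 1.36 ± 0.26, Igfbp4 by 1.26 ± 0.21, Igfbp7 by 1.07 ± 0.18 and Igf1r by 0.49 ± 0.10 on the log2 scale. For Igfbp6, Igfbp4 and Igf1 both mean levels were under that of erythroid cells (3.23 and 1.25 against 9.13 CPM, 148 and 58.6 against 222 CPM, and 57.0 and 34.1 against 175 CPM), and the part of free RNA in these differences was not tested. The other 4 calls were small: Igf1 at 0.64 ± 0.26, Ghr at 0.27 ± 0.09, Igf2 at -0.44 ± 0.14 and Igf2r at -0.31 ± 0.13. Each of them was lost without the block (adjusted p = 0.20, 0.075, 0.079 and 0.15) and without WT pup 2 (adjusted p = 0.12, 0.072, 0.056 and 0.10), and those of Igf1 and Igf2r were also lost without mutant pup 3 or 4. Further losses were those of Igf1 without WT pup 1 (0.064) and with DESeq2 (0.10), of Igf2r without mutant pup 5 (0.074) and without called doublets (0.058), and of Ghr with no upper limit on genes (0.13). The Ghr difference turned to -0.08 at the coarser clustering. Without the block no gene of the 10 was called lower.

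Perichondrial cells had higher levels of Igf1 and of all 5 binding proteins than resting chondrocytes. Of the 10 genes 6 were higher and 0 lower by edgeR, against 30.7% and 31.3% of all genes, and the median was 2.35 over the 10 genes and near 0 over all. Igf1 was 59.4-fold higher (log2 difference 5.89 ± 0.31, edgeR adjusted p = 4.3e-25), Igfbp3 52.7-fold (5.72 ± 0.42), Igfbp6 49.9-fold (5.64 ± 0.22), Igfbp5 23.5-fold (4.56 ± 0.28) and Igfbp4 17.7-fold (4.15 ± 0.23), and these are the genes whose promoters are printed above. The resting means of all 5 were under the erythroid means. They were 34.1 against 175 CPM for Igf1, 8.69 against 94.3 for Igfbp3 and 1.25 against 9.13 for Igfbp6. For Igfbp5 they were 117 against 319 CPM and for Igfbp4 58.6 against 222. The part of free RNA in the size of these folds was not tested. Igfbp7 was higher by 0.56 ± 0.18, and at the coarser clustering this fell to 0.23 and was not called (edgeR adjusted p = 0.27). The receptors did not pass the test, with log2 differences of 0.20 ± 0.09 for Ghr (adjusted p = 0.059), -0.28 ± 0.13 for Igf2r (0.057) and 0.01 for Igf1r, and Igf2 was also near 0. DESeq2 called Ghr higher (adjusted p = 0.024), and so did edgeR without WT pup 1 (0.21, edgeR adjusted p = 0.048). At the coarser clustering Ghr was called lower (-0.42, adjusted p = 2.0e-04), so the sign of its difference depended on how the classes were drawn. Igf2r was called lower at the coarser clustering (-0.45, edgeR adjusted p = 0.0033), with no upper limit on genes (-0.33, edgeR adjusted p = 0.043) and without WT pup 1 (-0.26, edgeR adjusted p = 0.031).

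**Figure D3:**
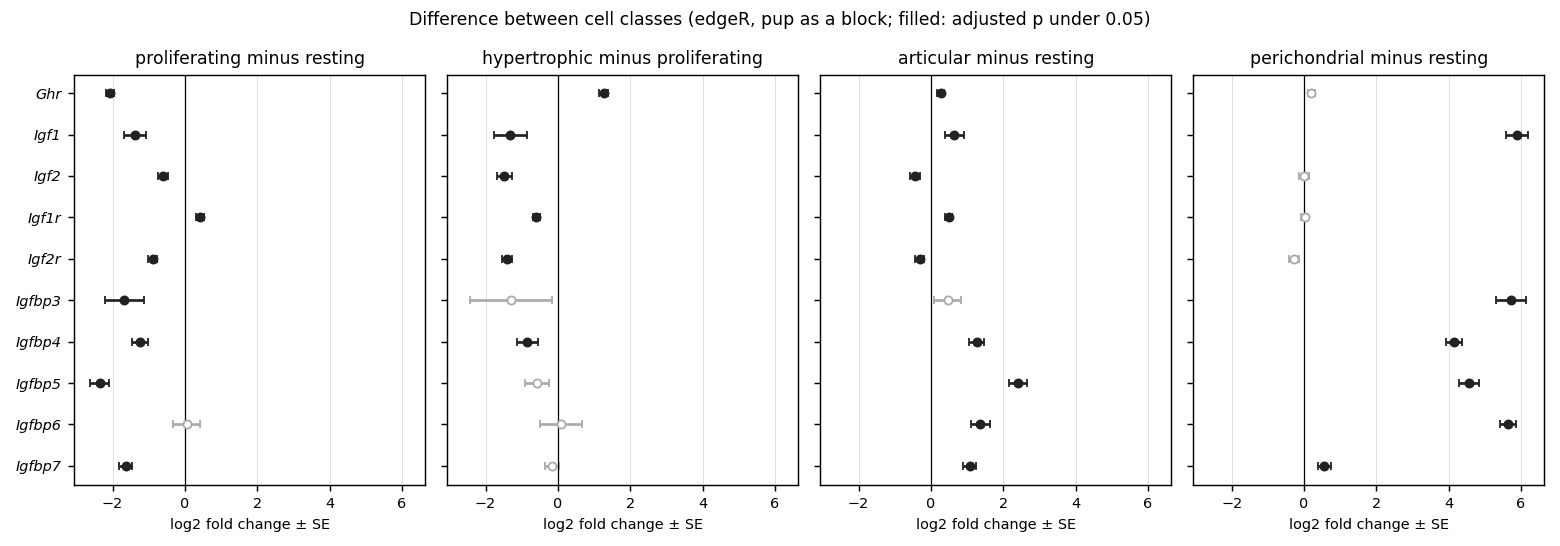
Log2 fold change ± SE (edgeR, 5 pups, pup as a block, a single fit of all tested classes) of the 10 genes in 4 contrasts of cell classes, 1 panel per contrast. Perichondrial against resting chondrocytes gave 5 binding protein and ligand genes above 4 on the log2 scale, while 8 genes lay below 0 and past the threshold from resting to proliferating chondrocytes.

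Of 55 further genes of the pathway, 51 were tested in these contrasts. From resting to proliferating chondrocytes 31 fell and 9 rose (60.8% and 17.6%, against 30.5% and 27.8% of all genes), with a median of -0.46. These too were differences in the share of UMIs between cells of unlike depth, and the part of depth was not tested. Genes that carry the growth hormone signal or answer to it were among those that fell: Jak2 (-1.26 ± 0.15), Stat5a (-1.40 ± 0.17), Socs2 (-1.35 ± 0.17) and Cish (-1.68 ± 0.25), the latter 2 being feedback inhibitors induced by Stat5. The binding protein proteases Pappa (-2.73 ± 0.19) and Pappa2 (-2.67 ± 0.22), the imprinted genes Dlk1 (-3.36 ± 0.23) and Mest (-3.07 ± 0.18) and the insulin receptor Insr (-0.88 ± 0.11) fell too. The receptor adaptors Irs1 (1.11 ± 0.13) and Grb14 (1.11 ± 0.18) and the Pappa inhibitor Stc2 (1.22 ± 0.21) rose.

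From proliferating to hypertrophic chondrocytes 15 pathway genes rose and 15 fell (29.4% each, median 0.07), close to the 23.9% and 27.2% of all genes. Grb14 (3.09 ± 0.19), an inhibitory adaptor of the insulin receptor, Cdkn1c (2.85 ± 0.22), an imprinted brake on the cell cycle, Gsk3b (2.48 ± 0.08), Foxo1 (1.31 ± 0.14) and Socs2 (0.96 ± 0.18) rose, while H19 (-1.56 ± 0.14) and Pappa2 (-2.02 ± 0.45) fell. In articular against resting chondrocytes 15 were higher and 13 lower (29.4% and 25.5%, against 20.9% and 22.5% of all genes, median -0.07), with Stc1 (3.29 ± 0.26), Igf2bp1 (1.44 ± 0.18) and Pappa (1.20 ± 0.14) among the higher and Stc2 (-1.92 ± 0.23) and Irs1 (-0.95 ± 0.13) among the lower. In perichondrial against resting cells 17 were higher and 17 lower (33.3% each, median -0.05), close to the 30.7% and 31.3% of all genes. Igfbp2 (5.67 ± 0.38), the prolactin receptor Prlr (4.68 ± 0.27), Stc1 (2.04 ± 0.26), the protease Htra1 (1.59 ± 0.19) and Socs3 (1.12 ± 0.18) were higher, and Stc2 (-3.26 ± 0.27), the carrier subunit Igfals (-2.68 ± 0.31) and Jak2 (-1.09 ± 0.14) lower.

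With the filter on low counts and all 5 pups, no difference between the genotypes was called by edgeR for any of the 10 genes in any class. Without that filter edgeR called 3 pairs, Igfbp3 in perichondrial cells (adjusted p = 7.2e-07) and in Tgfbi-expressing chondrocytes (0.011) and Igf1 in pericytes (0.031), where 0.3%, 0.204% and 0.952% of all genes with counts in these classes were called. Without WT pup 2 it called Igf2r in erythroid cells (0.048), along with 2.62% of the genes tested there. Each class was fitted on its own over the 5 pups, and so were all cells together (edgeR quasi-likelihood test, mutant minus WT, adjusted over all genes of the class). Over all genes, 3 were called in endothelial cells (0.0336%), 9 in macrophages (0.0875%) and none (0%) in the other 15 fits, so few calls were made of any gene. In the 16 classes 152 pairs of gene and class passed the filter on low counts, since Igf2 was tested in 14 classes, Igfbp3 in 15 and Igfbp6 in 11. Of these pairs 93 were higher and 59 lower in the mutant pups, with a median log2 difference of 0.12. No share over all genes is set beside these counts of direction, nor beside those of single genes other than Igfbp3 below. They are not read as trends, since the classes of a pup share a library. An unadjusted p under 0.05 was found for 15 of the 152 pairs (9.87%), while over all genes and classes the share was 5%. DESeq2 called 2 of its pairs at an adjusted p under 0.05, both of Igfbp3, in perichondrial cells and resting chondrocytes, where it called 0.0729% and 0.072% of all genes with counts. It gave 17 pairs (10.6%) an unadjusted p under 0.05, against 1.52% over all genes with counts and all classes. That background of 353052 pairs takes in genes of low count, which were filtered out of the 183779 pairs behind the edgeR share. The 2 background shares are therefore not alike.

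The values of the mutant and the WT pups did not overlap in 17 of the 152 pairs (11.2%), where 21.3% of the pairs of all genes did not overlap. All mutant pups were above both WT pups in 12 of the 152 pairs (7.89%), a share near the 7.29% of the pairs of all genes. An exact permutation test of 2 against 3 pups cannot give a two-sided p below 0.1, so no single gene could pass on ranks alone.

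Igfbp3 was the gene with the most even direction. It was higher in the mutant pups in 14 of 15 classes, with a median log2 difference of 0.92 and an unadjusted p under 0.05 in 6 classes. Of the 7269 genes tested in at least 15 classes, 13.6% kept 1 direction in all classes or all but 1, 1.39% had an unadjusted p under 0.05 in at least as many classes and 0.11% had a median at least as far from 0. These shares describe the same libraries and are no test, since the classes of a pup come from the same library and may share free RNA. In perichondrial cells the WT pups had 308.5 and 315 CPM and the mutant pups 501, 443 and 753 CPM, a log2 difference of 0.92 ± 0.22 (unadjusted p = 0.0044, edgeR adjusted p = 0.91). In endothelial cells the values of 1438 and 1469.8 against 1528, 1834 and 2169 CPM gave 0.36 ± 0.15 (unadjusted p = 0.029, edgeR adjusted p = 0.97). In both classes the groups were apart in the 5 pups but the difference failed the correction. The perichondrial difference was 0.90 ± 0.14 and passed it when genes of low count were not filtered out (edgeR adjusted p = 7.2e-07).

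The perichondrial difference was seen inside the clusters in which Igfbp3 was abundant. In the cluster led by Igfbp3 the WT pups had 739 and 721 CPM and the mutant pups 1063, 1028 and 1602 CPM. In the Clec3b cluster they had 157 and 204 CPM and 282, 208.0 and 296 CPM. The groups were apart in both clusters and overlapped in the Podn cluster (83.4 and 54.1 against 134, 117 and 82.9 CPM) and in the Mt2 cluster (23.1 and 159 against 182, 131 and 77.1 CPM). The cluster led by Igfbp3 held 26.7% and 23.9% of the perichondrial cells of the WT pups and 29.4%, 27.7% and 36.5% of those of the mutant pups. Pecam1, an endothelial marker, was at 1.52 and 3.31 CPM in the perichondrial cells of the WT pups and at 3.42, 1.69 and 1.27 CPM in those of the mutant pups, against a mean of 2424 CPM in endothelial cells.

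In resting chondrocytes Igfbp3 was at 4.92 and 5.77 CPM in the WT pups and at 15.6, 8.20 and 9.002 CPM in the mutant pups (log2 difference 1.09 ± 0.26, unadjusted p = 0.0032, edgeR adjusted p = 0.78). In pericytes it was at 10.6 and 20.02 against 27.0, 22.4 and 38.9 CPM (0.73 ± 0.33, unadjusted p = 0.045, edgeR adjusted p = 0.67). In prehypertrophic chondrocytes it was at 1.86 and 4.18 against 5.66, 6.16 and 5.12 CPM (0.94 ± 0.31, unadjusted p = 0.015, edgeR adjusted p = 0.99). The groups were apart in all 3 classes. In erythroid cells Igfbp3 was at 22.7 and 105 CPM in the WT pups and at 228, 113 and 2.74 CPM in the mutant pups, so the 3 classes were below the erythroid level in pups 1 to 4 and above it in pup 5. The erythroid class of pup 5 held 45 cells and 364548 UMIs in all. Its 2.74 CPM was thus at the level of single UMIs and is no firm guide to the background of that pup. The resting class also differed in its clusters: the one led by Sfrp5 and Arc held 19.7% and 30.0% of the resting cells of the WT pups and 9.71%, 2.80% and 17.2% of those of the mutant pups. Within the 5 resting clusters the Igfbp3 values of the groups were apart in the one led by Ucma (3.40 and 2.04 against 8.93, 6.40 and 5.18 CPM) and in the mitotic one (1.85 and 5.67 against 15.97, 8.23 and 10.3 CPM), and overlapped in the other 3. Tgfbi-expressing chondrocytes had 4.69 and 3.49 against 10.2, 16.3 and 4.45 CPM (1.32 ± 0.55, unadjusted p = 0.048, edgeR adjusted p = 0.98), with an overlap.

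Further classes with a mean of at least 10 CPM had a log2 difference of Igfbp3 of at least 0.5 without an unadjusted p under 0.05: synovial or articular progenitors (1.20 ± 0.57), fibrocartilage-like cells (0.96 ± 0.42), erythroid cells (0.94 ± 1.17), tendon or ligament cells (0.90 ± 0.51) and macrophages (0.58 ± 0.39), and in each the groups overlapped. With 1 pup left out the synovial difference ranged from 0.87 to 2.54. In proliferating chondrocytes, at a mean of 2.93 CPM, the difference was 1.23 ± 1.25. Osteoblast lineage cells were the class with the opposite sign, with 299 and 192 against 85.1, 250.2 and 309 CPM (-0.17 ± 0.60). Over all cells the difference was 0.72 ± 0.23 (unadjusted p = 0.019, edgeR adjusted p = 0.84), with 47.1 and 69.5 against 109.8, 90.3 and 66.6 CPM and an overlap. Xist UMIs marked mutant pups 3 and 4 only, so a difference apart from Xist rests on mutant pup 5 alone against the WT pups, and sex and genotype were confounded in the other mutant pups. With these pups marked by a covariate, 7 of the 29 genotype differences followed over the 10 genes changed sign. Among the 7 were those of Igfbp3 in erythroid (-4.48), synovial (-0.82) and tendon or ligament cells (-0.0062). DESeq2 called the difference in perichondrial cells (adjusted p = 0.022) and in resting chondrocytes (0.0497). The lower depth of the mutant libraries moved with the genotype too, and its part was not tested.

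**Figure D4:**
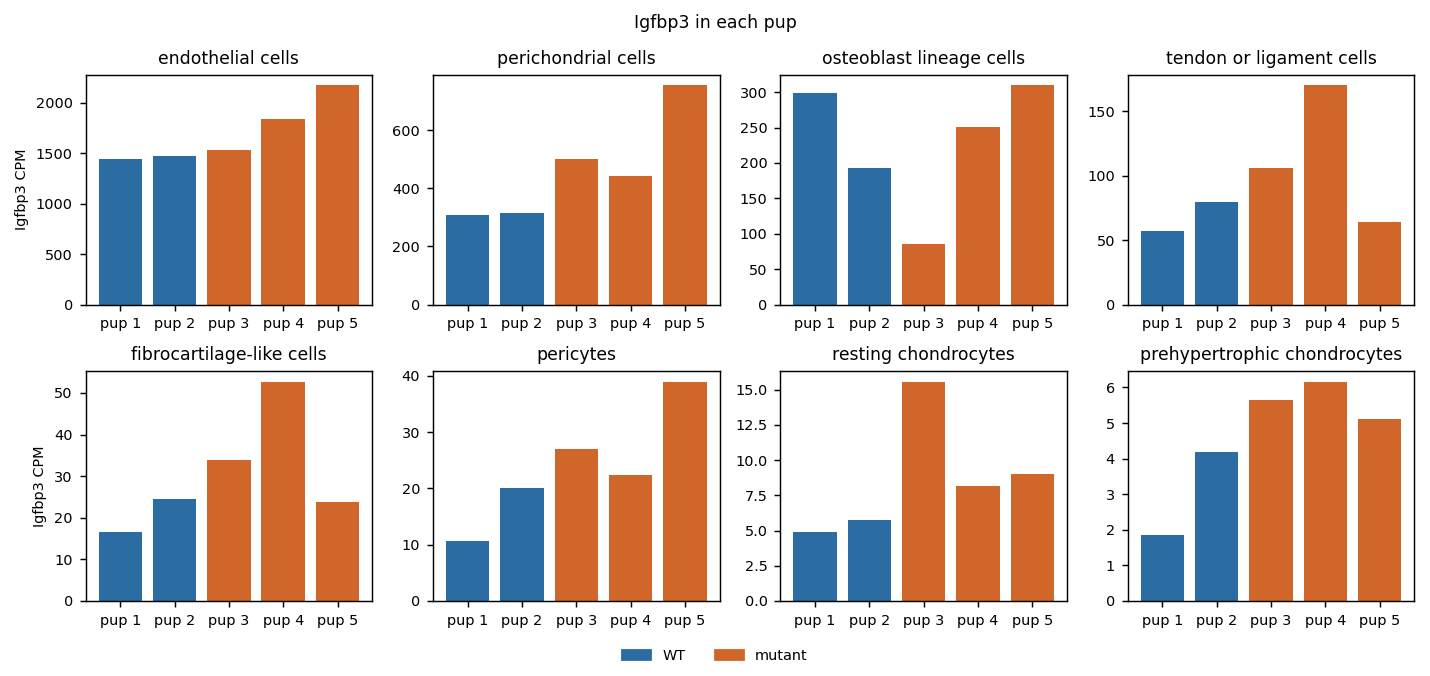
Igfbp3 CPM in each of the 5 pups (blue bars, WT; orange bars, mutant) in 8 cell classes, each panel with its own linear axis from 0. The mutant bars exceeded both WT bars in endothelial cells, perichondrial cells, pericytes, resting and prehypertrophic chondrocytes, and not in osteoblast lineage, tendon or ligament or fibrocartilage-like cells.

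Igf1 was lower in the mutant pups in 12 of 16 classes. In endothelial cells it was at 167 and 283 CPM in the WT pups and at 149, 112 and 135 CPM in the mutant pups (-0.74 ± 0.22, unadjusted p = 0.0040, edgeR adjusted p = 0.72). In pericytes it was at 88.4 and 101 against 68.9, 47.4 and 28.3 CPM (-0.80 ± 0.25, unadjusted p = 0.0082, edgeR adjusted p = 0.48). The groups were apart in both classes. Without the filter on low counts the pericyte difference was called (-0.82 ± 0.22, edgeR adjusted p = 0.031). Both mean levels, 169 and 66.7 CPM, were under the erythroid mean of 175 CPM, and the part of free RNA in these differences was not tested. In proliferating chondrocytes the log2 difference was -0.57 ± 0.77 (unadjusted p = 0.51) at a mean of 14.6 CPM and turned positive without WT pup 2. In perichondrial cells, where the gene was highest, the difference was -0.17 ± 0.31.

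No genotype difference of a receptor was called in a fit with all 5 pups. Igf2r was higher in 14 of 16 classes, and unadjusted p-values under 0.05 were found in granulocytes (82.7 and 122 against 164, 195 and 204 CPM; 0.92 ± 0.32, unadjusted p = 0.017, edgeR adjusted p = 1.0), macrophages (85.0 and 78.0 against 84.4, 117 and 161 CPM; 0.57 ± 0.24, unadjusted p = 0.043, edgeR adjusted p = 0.78) and pericytes (341 and 285 against 384, 441 and 432 CPM; 0.42 ± 0.17, unadjusted p = 0.029, edgeR adjusted p = 0.61). The groups were apart in granulocytes and pericytes and overlapped in macrophages. In erythroid cells the difference of Igf2r was 0.88 ± 0.47 (unadjusted p = 0.10), and without WT pup 2 it was 1.72 and was called (edgeR adjusted p = 0.048). Macrophages were also the class in which the Mrc1 cluster took 35.3% and 54.5% of the cells of the WT pups and 63.3%, 64.8% and 41.2% of those of the mutant pups, and Igf2r was lower in that cluster (85.7 CPM) than in the Cd74 cluster (140.3 CPM).

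Ghr was higher in 6 and lower in 10 of the 16 classes. Its largest difference, 0.77 ± 0.45 in granulocytes (unadjusted p = 0.12), came from 20.8 and 35.6 against 35.5, 40.4 and 61.6 CPM, which overlapped. In resting chondrocytes it was 0.11 ± 0.11 and in proliferating chondrocytes 0.16 ± 0.23. Igf1r was higher in 11 of 16 classes, with no difference of 0.5 or more, and Igf2 in 6 of 14, likewise.

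Among the other binding proteins, Igfbp4 was higher in the mutant pups in proliferating chondrocytes (20.9 and 22.6 against 31.3, 31.3 and 26.1 CPM; 0.47 ± 0.16, unadjusted p = 0.0098, edgeR adjusted p = 0.44), at a level below that of erythroid cells. Its differences in hypertrophic (0.89 ± 0.56) and Tgfbi-expressing chondrocytes (0.55 ± 0.50) had unadjusted p-values of 0.16 and 0.32, and with 1 pup left out they ranged from 0.48 to 2.09 and from 0.030 to 0.96. Igfbp5 had its largest differences in Tgfbi-expressing (0.73 ± 0.59, unadjusted p = 0.27) and resting chondrocytes (0.56 ± 0.27, unadjusted p = 0.081). With the Xist covariate, which leaves mutant pup 5 alone, both Igfbp5 differences turned negative (-0.62 and -0.026). Those of Igfbp4 in hypertrophic (-0.65) and Tgfbi-expressing chondrocytes (-0.29) did too, while that in proliferating chondrocytes kept its sign. At the coarser clustering Igfbp5 in Tgfbi-expressing chondrocytes was at -0.0200. Both genes were higher in 12 of 16 classes, and none of these differences passed the correction. Igfbp7 was higher in endothelial cells (2042 and 1986 against 3041, 2627 and 2250.0 CPM; 0.41 ± 0.15, unadjusted p = 0.012, edgeR adjusted p = 0.85) and lower in osteoblast lineage cells (698 and 419 against 238, 376 and 397 CPM; -0.69 ± 0.26, unadjusted p = 0.027, edgeR adjusted p = 0.87), where the groups were apart in both. In granulocytes its difference was 0.76 ± 0.37 (unadjusted p = 0.068). Igfbp6 was at 0.535 and 1.06 against 3.82, 2.22 and 1.05 CPM in Tgfbi-expressing chondrocytes (1.54 ± 0.65, unadjusted p = 0.042, edgeR adjusted p = 0.98), near the level of single UMIs, and at 0.57 ± 0.98 on the log2 scale in erythroid cells.

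**Figure D5:**
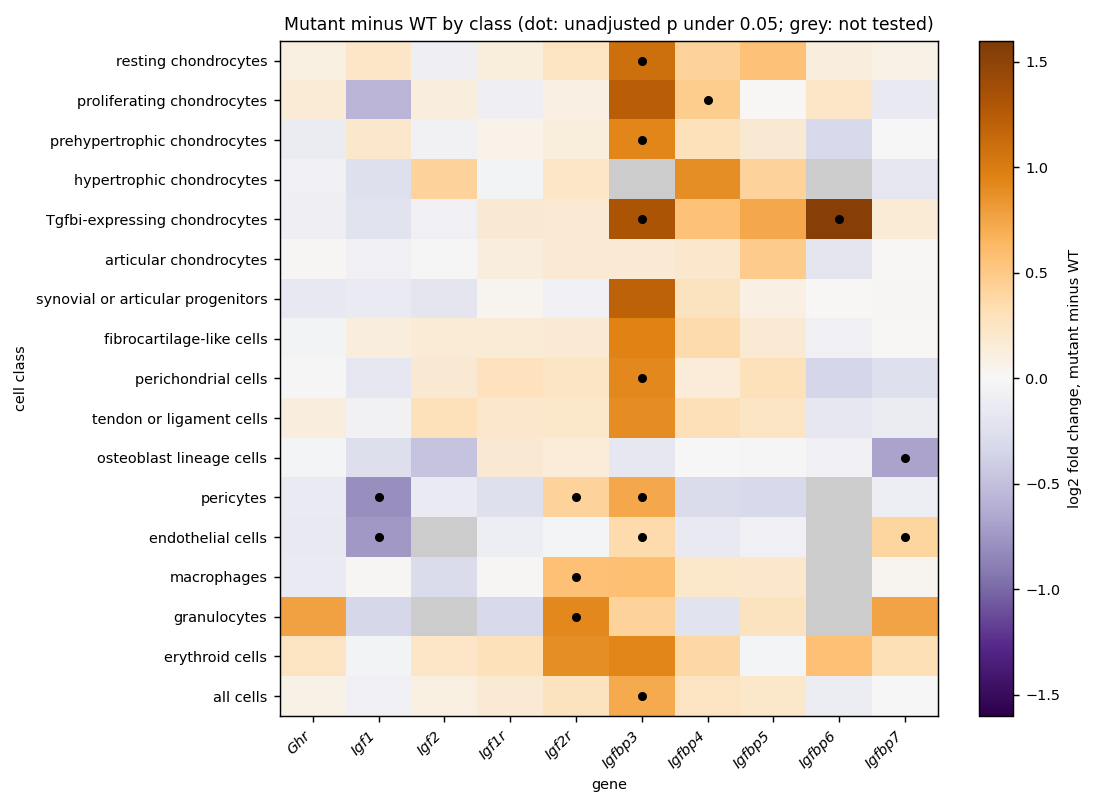
Log2 fold change, mutant minus WT, of each of the 10 genes (columns) in 16 classes and in all cells (rows), from -1.6 (purple) to 1.6 (orange), with a dot where the unadjusted p was under 0.05 and grey where the gene was not tested. Igfbp3 was above 0 in 14 of 15 classes and no cell of the plot passed the adjusted threshold.

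Of the 55 pathway genes, 759 pairs of gene and class were tested between the genotypes and none was called by edgeR or by DESeq2. An unadjusted edgeR p under 0.05 was found in 56 pairs (7.38%, against 5% over all genes). DESeq2 gave one to 45 of its 841 pairs, against 1.52% over all genes with counts, a background that takes in genes of low count. The lowest adjusted p-values were in pericytes, where Igfbp2 was at 91.4 and 129.8 CPM in the WT pups and at 26.5, 18.4 and 0 CPM in the mutant pups (-2.45 ± 0.42, edgeR adjusted p = 0.26), and Stc1 at 30.2 and 20.9 against 48.7, 88.1 and 53.1 CPM (1.35 ± 0.31, edgeR adjusted p = 0.27). Both were apart between the groups. Other pairs with an unadjusted p under 0.05 and a log2 difference of at least 0.5 included, in pericytes, Adam12 (0.89), Socs1 (0.77) and Mtor (-0.72), and in endothelial cells Adam12 (0.75), Dlk1 (-0.61) and Rptor (-1.35). Macrophages (Grb14 1.19, Socs1 0.71), osteoblast lineage cells (Jak2 0.54, Mtor 0.50), tendon or ligament cells (Socs1 0.52) and synovial or articular progenitors (Pappa2 -0.90) gave others outside cartilage. In chondrocytes they were Pik3cb in articular (0.66), Stc1 in prehypertrophic (0.62) and resting (0.68) and Igfbp2 in proliferating cells (1.51).

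Whether the genotype difference itself varied between classes was tested against resting chondrocytes. None of the 10 genes was called in proliferating, hypertrophic, articular or perichondrial cells (edgeR, interaction of class and genotype with pup as a block), and over all genes 1 was called in perichondrial cells (0.00607%) and 0 (0%) in the other 3. An unadjusted p under 0.05 was found for 1 of the 40 pairs, Igf2 in hypertrophic chondrocytes (0.60 ± 0.29, unadjusted p = 0.0496, edgeR adjusted p = 0.93). The Igfbp3 difference in perichondrial cells was -0.18 ± 0.47 from that in resting chondrocytes (edgeR adjusted p = 1.0), and the SE leaves room for differences of either sign.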

How the data were processed

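Single cells from 5 pups were captured on the BD Rhapsody system as 1 library per pup. The authors deposited raw UMI counts for each barcode, obtained with the pipeline of the platform's maker and, per the submitters' processing notes, the mm10 genome. The aligner version, the annotation and the strand setting are not given in the sources used here. No values were normalized before deposit, and the files held between 117746735 and 183322632 UMIs per pup.

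The cell limits of the study were kept: at least 200 and at most 6000 genes, and at most 10% of UMIs from mitochondrial genes. The upper limit on genes took out 142 and 181 cells of the WT pups and 23, 6 and 12 of the mutant pups. Pearson residuals (theta 100, 3000 features, without the 10 genes, the pathway list, mitochondrial and sex-linked genes) computed within each pup, were reduced to 50 principal components and clustered by Leiden (20 neighbours, resolution 1.5, seed 1) with scanpy 1.11.5 and leidenalg 0.10.2. Clusters were named from marker lists by standardized log2(CPM + 5), and 3 detected markers were required. For 9 chondrocyte and connective tissue classes a defining gene (Ucma for resting, Fgfr3 for proliferating cells) also had to be above the mean of the other clusters, and the leading 10 genes of a cluster could not hold more markers of another class. Otherwise the next name within 0.5 of the best score was taken. The limit on the defining gene was set after the data were seen. Cells with a Scrublet score over 0.35 were called doublets (2.76% to 3.54% of cells), and these were kept and removed in an alternative. This common limit was set because the tool's own limit failed in mutant pup 5, where it called 1 cell.

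UMIs were summed per pup and class and tested with edgeR 4.0.16 (TMM, filterByExpr, quasi-likelihood, Benjamini-Hochberg), with the pup as a block between classes, and with DESeq2 1.42.0 as an alternative. The scripts were tested on simulated data. Shares of cells were taken after thinning to 3000 UMIs, which left out 21 WT and 2282 mutant cells. The precision rests on the number of pups and on counting, and the latter limits low levels.

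The 10 genes are named with their level in every class. Genotype statistics are given where the unadjusted p was under 0.05, or where the log2 difference was at least 0.5 at a mean of at least 10 CPM. Pathway genes are named, with an exception not reported here, where called, or with an unadjusted p under 0.05 and a log2 difference of at least 0.5 between genotypes, and the pathway examples of the class contrasts were picked with their values known. The 2 most alike genes by Pearson's r are named. The genes, lists and tests were chosen with earlier results of these data known. Promoters came from RefSeq (GRCm38.p6) and gene positions from GENCODE (GRCm38).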

Additional observations from a re-analysis of the deposited data

How the results depend on the processing

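No paired analysis was possible because WT and mutant pups share no pup number in the labels. Between classes the pup was the block. Without the replicate block 24 of the 30 class differences called among the 10 genes kept their call, and those lost were Ghr (0.27), Igf1 (0.69), Igf2 (-0.45) and Igf2r (-0.32) in articular against resting and Igf1 (-1.21) and Igfbp4 (-0.76) in hypertrophic against proliferating chondrocytes, so that 0 and 3 genes were then lower.

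The 12 genes called between genotypes over all fits became 178 with DESeq2, 79 with Xist-carrying pups as a covariate (a fit that leaves mutant pup 5 alone against the 2 WT pups), 7 without doublets, 913 without the filter on low counts, and between 5 and 441 with 1 pup left out (221 and 441 when it was WT pup 1 or 2, 5 and 114 when it was mutant pup 4 or 5). Of the 10 genes, none was called in the reported fits, against 2 pairs with DESeq2, 3 without the filter (Igfbp3 in perichondrial and Tgfbi-expressing cells, Igf1 in pericytes) and 0 to 1 with a pup left out (Igf2r in erythroid cells, without WT pup 2). The 1 gene called in the interaction became 0 to 12 with a pup left out (9 and 12 when it was WT pup 1 or mutant pup 5, 0 when it was mutant pup 3 or 4). Genes lower in articular against resting chondrocytes numbered 2, and 1 without doublets and 0 to 2 with a pup left out. In hypertrophic against proliferating chondrocytes they numbered 5, and 4 to 5 with a pup left out. In perichondrial against resting cells they numbered 0, 2 at the coarser clustering (resolution 0.8), 1 with no upper limit on genes and 0 to 1 with a pup left out. The median share of cells with a UMI, 17.5% after thinning, was 34.1% unthinned.

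With the Xist covariate, where the mutant arm was pup 5 alone and was assumed to vary like the other pups, the differences that changed sign were those of Igfbp3 in erythroid (-4.48), synovial (-0.82) and tendon or ligament cells (-0.0062), Igfbp4 in Tgfbi-expressing (-0.29) and hypertrophic chondrocytes (-0.65) and Igfbp5 in Tgfbi-expressing (-0.62) and resting chondrocytes (-0.026). At resolution 0.8 Igfbp5 in Tgfbi-expressing chondrocytes was -0.0200, and with no upper limit Igf1 in proliferating chondrocytes was 0.027. With 1 pup left out, Igf1 in proliferating chondrocytes ranged from -1.20 to 0.74 and Igfbp3 in erythroid cells from -0.12 to 2.57.

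Between classes, the sign of several differences changed. Ghr in articular against resting chondrocytes, called at 0.27, was -0.082 at resolution 0.8, and Ghr in perichondrial against resting cells -0.42 at resolution 0.8, where it was called, and -0.0201 with no upper limit. Igf2 in perichondrial against resting cells was -0.015 without doublets, -0.14 at resolution 0.8 and -0.14 with no upper limit, and ranged from -0.041 to 0.053 with a pup left out. Igf1r there ranged from -0.012 to 0.073. Igfbp6 in proliferating against resting chondrocytes was -0.044 without doublets, -0.40 at resolution 0.8 and -0.16 with no upper limit, and ranged from -0.24 to 0.28 with a pup left out, while in hypertrophic against proliferating chondrocytes it ranged from -0.35 to 0.39. The cause of these changes was not tested.

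Of 160 levels, each computed under 4 other settings, 30 moved by over 1.5 times under at least 1 of them, in 39 pairs of level and setting, 9 of them in osteoblast lineage cells at resolution 0.8 and 6 in prehypertrophic chondrocytes with no upper limit on genes, where Igf1 went from 17.4 to 8.74 and Igfbp5 from 30.3 to 15.7 CPM. Fibrocartilage-like cells had 228 CPM of Igf1, and 73.4 and 64.3 CPM under these settings.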
